A study of Mus musculus with 6 samples.

Results

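The ATF4 amino acid stress response is described here through 10 genes, Atf4, Atf5, Ddit3, Cebpg, Asns, Slc7a11, Trib3, Chac1, Sesn2 and Ddit4, out of 18194 genes measured in mouse leukemias. They were taken by symbol, with every probe set annotated to 1 of these symbols, which gave 19 of the 45101 probe sets. The genes had been chosen by their log2 intensities on these same arrays, with the differences between the 2 groups already known. Those differences are therefore given as a description, with no p.

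The leukemias arose from bone marrow of C57BL/6 mice into which the leukemogenic fusion MLL-ENL had been introduced before transplantation into congenic recipients. The 3 arrays labelled Runx1-KO came from marrow with an excised Runx1 gene and the 3 labelled Control from marrow with an intact one. Both groups carried MLL-ENL, and each array was an independent leukemia taken from a moribund mouse. The labels give neither the promoter that drove the excision nor how far host cells were removed from the harvested cells.

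ATF4 is a basic leucine zipper transcription factor that links shortage of amino acids, stress of the endoplasmic reticulum and other insults to gene expression. Under these conditions kinases phosphorylate the translation factor eIF2, general protein synthesis slows, and the Atf4 messenger, which carries short upstream reading frames, is translated more. Its regulation is thus largely translational, and the level of its target messengers is the usual readout on arrays. ATF4 binds together with C/EBP family partners at composite elements in genes for amino acid synthesis, transport and stress signalling.

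Such composite elements were looked for in the RefSeq promoter windows of the GRCm38.p6 build, 250 bases before to 50 bases after each annotated start. The letters TGATGNAA were searched on both strands, so that the opposite strand reads TTNCATCA. All 10 genes had a window, and 4 of them, Asns, Chac1, Slc7a11 and Trib3, held a match. Of all 32851 windows 1304 (3.97%) held one, and of the 14453 measured genes with a window 468 (3.24%). The matching stretches are shown because these 4 genes include Asns and Trib3, on which the description of the arrays turns; they run 5′ to 3′ on the gene's own strand, with the match in capitals.
Asns: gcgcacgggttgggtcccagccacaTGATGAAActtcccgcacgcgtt
Chac1: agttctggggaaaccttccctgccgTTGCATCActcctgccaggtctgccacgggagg
Slc7a11: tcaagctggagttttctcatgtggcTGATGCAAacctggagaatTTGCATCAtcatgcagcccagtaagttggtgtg
Trib3: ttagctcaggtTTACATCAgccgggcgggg
The Asns stretch is chr6:7693210-7693257 on the minus strand, and its match begins 23 bases before the start. The Chac1 stretch is chr2:119351024-119351081 on the plus strand. The Slc7a11 stretch, chr3:50443628-50443704 on the minus strand, held 2 matches in opposite orientation. The Trib3 match lay just past the annotated start, in chr2:152344028-152344057 on the minus strand. A match describes the letters in the window and is not a bound site. The windows of Atf4, Atf5, Ddit3, Cebpg, Sesn2 and Ddit4 did not hold these letters.

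The arrays were of similar overall brightness, with median intensities from 24.4 to 26.0. RNA integrity was read from control probe sets at both ends of a transcript: for Gapdh, the 3′ signal divided by the 5′ signal was 7.10 on Runx1-KO 1 and 2.67 to 3.02 on the other 5, whereas the same ratio for beta-actin was 1.03 to 1.11 on all 6. The 9 myeloid leukemia markers, among them Mpo, Kit and Cd33, were above background on at least 3 arrays each. The 5 erythroid markers had a summed intensity of 3843 on Control 1 and of 49.4 to 173.7 elsewhere. All 9 mature neutrophil markers had a higher Runx1-KO mean (summed intensity 15285 to 18006 against 8218 to 12280), and all 8 macrophage markers a lower one (2310 to 2405 against 3973 to 5208). Markers of T and NK cells (126 to 139 against 139 to 231), B cells (137 to 252 against 148 to 230) and stroma (153 to 213 against 130 to 320) had low summed intensities. The part of any of these in the results was not tested. Runx1 itself was 1.70-fold higher on the Runx1-KO arrays, and its probe sets are not placed relative to the excised part, so it checks nothing. Xist was 1624, 1857 and 1895 on the Runx1-KO arrays and 331, 85.4 and 25.3, above background, on the Control arrays. The 3 measured Y-linked genes were called lower on the Runx1-KO arrays and lay at background there. Genotype and sex of the leukemia therefore cannot be told apart. The source of the Xist signal on the Control arrays was not tested. In such bulk samples, fewer cells of a type and less RNA per cell cannot be told apart either.

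Several ATF4 targets were high on Runx1-KO 2 and Runx1-KO 3 and near or little above the Control level on Runx1-KO 1, while the Atf4 messenger hardly varied. Trib3, Sesn2, Asns, Ddit4 and Slc7a11 shared this pattern among the Runx1-KO arrays. Chac1 was highest on Runx1-KO 3 alone, Ddit3 differed little among the Runx1-KO arrays, and Cebpg and Atf5 had lower Runx1-KO means. Levels are linear array intensities of the brightest probe set of each gene, and each difference is the Runx1-KO minus the Control mean of log2 intensity with the limma moderated standard error (SE, n = 3 per group). A background limit, the highest of 27 unspiked bacterial control probe sets, lay between 14.1 and 22.5 on the 6 arrays.

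**Figure D1:**
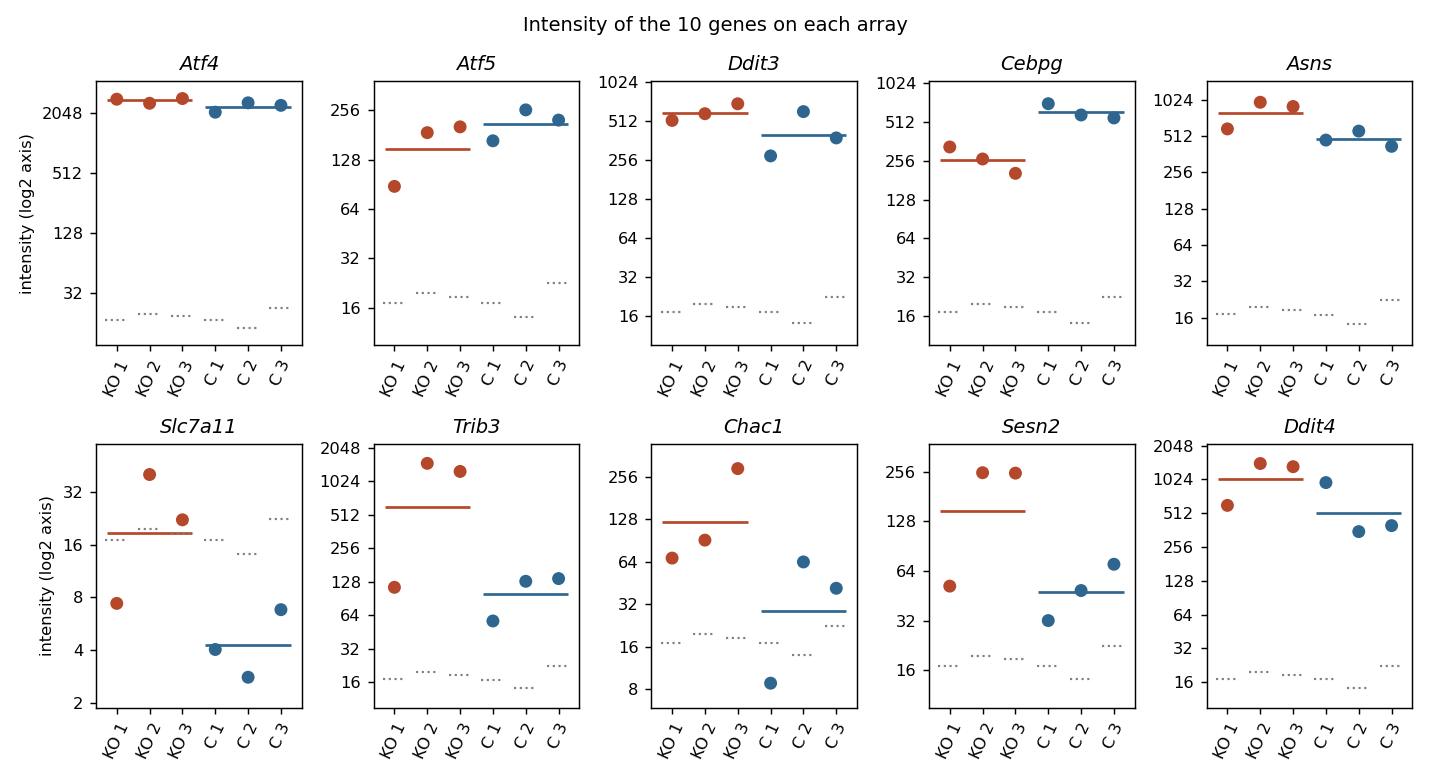
Intensity of each of the 10 genes on a log2 axis for the Runx1-KO arrays (KO 1 to 3, red) and the Control arrays (C 1 to 3, blue), with solid lines at the geometric mean of each group and dotted lines at the background limit of each array. Trib3 stands at 1478 and 1250 on KO 2 and KO 3 against 114 on KO 1, and Slc7a11 lies below the limit on all Control arrays.

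Among the transcription factors, Atf4 was the steadiest gene of the 10. Its intensity was 2816, 2563 and 2860 on Runx1-KO 1, 2 and 3 and 2085, 2589 and 2442 on Control 1, 2 and 3. The groups overlapped, with Runx1-KO 2 below Control 2, and the log2 difference was 0.22 ± 0.18, or 1.16-fold. The second probe set of Atf4 gave 0.23, and the third was at or below its limit on 4 of the 6 arrays. The level of the messenger does not report translation of the ATF4 protein.

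Ddit3 encodes CHOP, a C/EBP-related factor that ATF4 induces and that promotes cell death when stress lasts. It stood at 517, 583 and 696 on the Runx1-KO arrays and at 275, 606 and 379 on the Control arrays. Control 2 lay inside the Runx1-KO range, so the groups overlapped. The log2 difference was 0.58 ± 0.33, or 1.49-fold, and the second Ddit3 probe set gave 0.53. It was 0.31 without Control 1, the lowest array, and 0.88 without Control 2.

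Atf5, a close relative of ATF4 that is regulated by translation in the same way, had no higher level in the Runx1-KO group. It was 87.9, 187 and 203 on the Runx1-KO arrays and 167, 258 and 223 on the Control arrays. Runx1-KO 1 was lowest of all 6, and the other 2 Runx1-KO arrays lay within the Control range. The log2 difference of -0.51 ± 0.38 ran from -0.73 to -0.12 with 1 array left out, the latter without Runx1-KO 1.

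Cebpg encodes C/EBP gamma, a short C/EBP protein that pairs with ATF4 on its composite elements. Its brightest probe set read 328, 264 and 204 on the Runx1-KO arrays and 711, 581 and 551 on the Control arrays. All 3 Runx1-KO arrays lay below all 3 Control arrays, by a log2 difference of -1.23 ± 0.24, or 2.34-fold. The probe sets of Cebpg disagreed. The second gave -0.64 with overlapping groups, and the third gave 0.22, with 66.0, 158 and 160 on the Runx1-KO arrays against 82.4, 120 and 107. On the third probe set Runx1-KO 1 was the lowest Runx1-KO array, as for Trib3 and Asns, and on the first it was the highest. Averaged over its 3 probe sets the difference was -0.55.

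Of the genes for amino acid supply, Asns makes asparagine from aspartate and glutamine and is a standard ATF4 target. Its intensity was 588, 979 and 902 on the Runx1-KO arrays and 475, 564 and 422 on the Control arrays. The groups did not overlap, although Runx1-KO 1 exceeded Control 2 by little. The log2 difference was 0.73 ± 0.26, or 1.66-fold. Relative to the Control mean, Asns was 1.22-fold on Runx1-KO 1, 2.02-fold on Runx1-KO 2 and 1.87-fold on Runx1-KO 3. The second probe set repeated the order among the Runx1-KO arrays, with 455, 918 and 763 against 371, 481 and 310 in Control. On it the groups overlapped, with Runx1-KO 1 below Control 2.

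Slc7a11 encodes xCT, which imports cystine in exchange for glutamate and feeds glutathione synthesis. It was weak and above background on only 2 of the 6 arrays, at 7.38, 40.2 and 22.2 on the Runx1-KO arrays and 4.02, 2.79 and 6.79 on the Control arrays. The 2 arrays above their limits were Runx1-KO 2 and Runx1-KO 3. The fitted log2 difference of 2.14 ± 0.67 thus rests on signal below background, and the fold that can be stated is at least 1.07. The fitted difference was 1.59 to 2.82 with 1 array left out, highest without Runx1-KO 1. The second Slc7a11 probe set had the same 2 arrays above the limit. On it the groups overlapped, with 5.65 on Runx1-KO 1 and 6.1 on Control 1. Slc3a2, the heavy chain that carries xCT to the cell surface, was at 573, 557 and 727 against 480, 528 and 549, a log2 difference of 0.25 ± 0.19.

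The gene with the widest range belongs to feedback and growth control. Trib3 encodes a pseudokinase that ATF4 and CHOP induce and that in turn dampens ATF4. It stood at 114, 1478 and 1250 on the Runx1-KO arrays and at 56.9, 129 and 137 on the Control arrays. On Runx1-KO 2 it was 14.8-fold and on Runx1-KO 3 12.5-fold the Control mean, whereas Runx1-KO 1 lay inside the Control range at 1.14-fold. Its log2 difference of 2.57 ± 1.02 was 3.76 without Runx1-KO 1, 1.92 without Runx1-KO 2 and 2.04 without Runx1-KO 3. The second Trib3 probe set had the same order, with 18.3, 285 and 168 against 16.8, 25.3 and 20.7. The range of Trib3 over the Runx1-KO arrays was 13.0-fold, and 0.0515% of the 9703 genes above background on all arrays had a range as wide.

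Sesn2 encodes Sestrin 2, a leucine sensor that restrains the growth kinase complex mTORC1. Its intensity was 51.8, 253 and 252 on the Runx1-KO arrays and 32.0, 48.7 and 70.4 on the Control arrays. Runx1-KO 2 and Runx1-KO 3 were each well above all Control arrays, at 5.29-fold and 5.26-fold the Control mean, and Runx1-KO 1 was between Control 2 and Control 3. The difference of 1.64 ± 0.68 was 2.40 without Runx1-KO 1, 1.25 without Runx1-KO 2 and 1.26 without Runx1-KO 3. The dimmer second probe set gave 35.0, 81.0 and 68.3 against 41.0, 32.6 and 29.0, again with Runx1-KO 1 within the Control range.

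Ddit4 encodes REDD1, another inhibitor of mTORC1 signalling, which hypoxia and glucocorticoids also induce. It was 600, 1417 and 1328 on the Runx1-KO arrays and 958, 351 and 396 on the Control arrays. Control 1, the array with erythroid signal, exceeded Runx1-KO 1, so the groups overlapped; the part of the erythroid signal in this was not tested. The log2 difference of 1.03 ± 0.51 was 1.48 without Control 1, 1.43 without Runx1-KO 1 and 0.76 to 0.85 without any 1 of the other 4 arrays. Without both arrays numbered 1 it was 1.88.

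Chac1 encodes an enzyme that degrades glutathione and lies downstream of ATF4, ATF3 and CHOP. Its single probe set read 68.2, 91.3 and 293 on the Runx1-KO arrays and 8.86, 64.0 and 41.7 on the Control arrays. Every Runx1-KO array was above every Control array, but Runx1-KO 1 only just above Control 2. Control 1 was below its background limit, so the difference is stated as at least 3.43-fold. On the log2 scale the fitted difference of 2.09 ± 0.88 was 1.24 without Control 1, 1.46 without Runx1-KO 3 and 2.67 without Control 2.

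**Figure D2:**
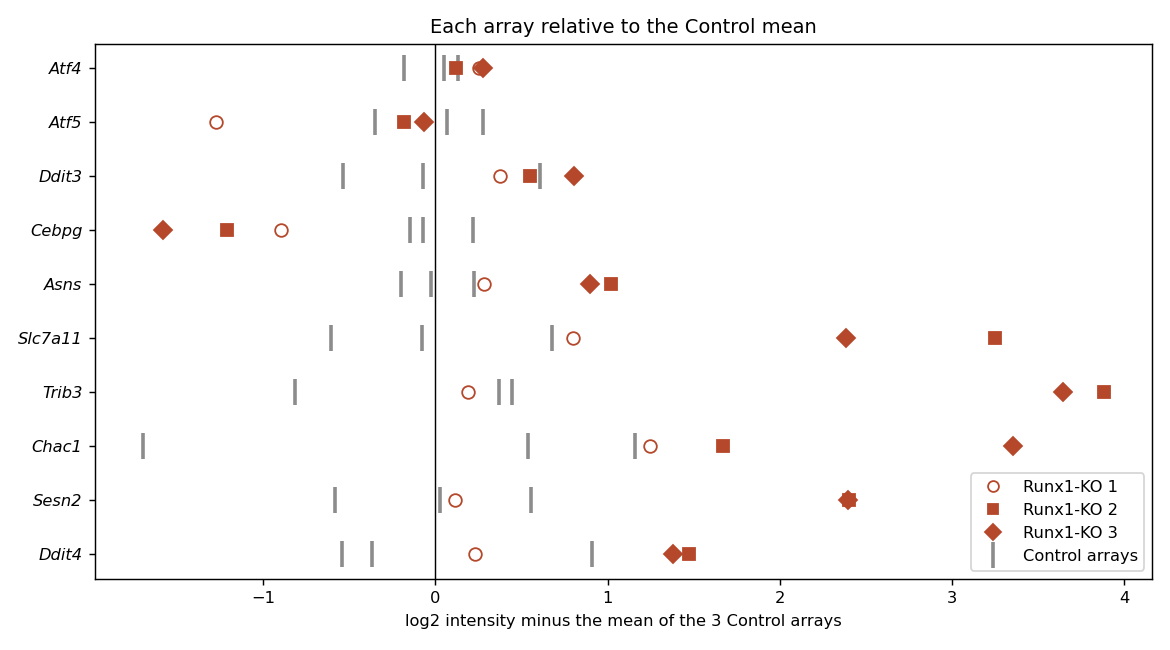
Log2 intensity of each array minus the mean of the 3 Control arrays, for the 10 genes; open circles, filled squares and filled diamonds are Runx1-KO 1, 2 and 3, and grey bars are the Control arrays. Trib3, Sesn2 and Ddit4 place Runx1-KO 1 among the Control arrays, and Cebpg places all 3 Runx1-KO arrays below them.

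Array by array, Runx1-KO 1 exceeded all Control arrays in 4 of the 10 genes, Runx1-KO 2 in 6 and Runx1-KO 3 in 8. Over all genes these shares were 31.8%, 32.0% and 28.2%. Runx1-KO 1 was the lowest of the 3 Runx1-KO arrays in 8 of the 10 genes, against 32.8% of all genes. The median difference of the 10 genes from the Control mean was 0.24 on Runx1-KO 1, 1.24 on Runx1-KO 2 and 1.14 on Runx1-KO 3 on the log2 scale, against 0.02, 0.00 and -0.03 over all genes. Trib3, Sesn2 and Ddit4 were above all Control arrays on both Runx1-KO 2 and Runx1-KO 3 but not on Runx1-KO 1, a pattern held by 6.57% of all genes. The Gapdh ratio also set Runx1-KO 1 apart, and its part in these values was not tested. Without Runx1-KO 1 the groups did not overlap in 7 of the 10 genes, against 36.2% of all genes in the same comparison of 2 arrays with 3.

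Over the 3 arrays of each group, 8 of the 10 genes had a higher Runx1-KO mean, against 49.2% of all genes, and their median log2 difference was 0.88, against -0.01. Among all genes, limma with Benjamini-Hochberg adjustment at 0.05 called 16 of 18194 (0.0879%), 6 higher (0.033%) and 10 lower (0.055%). For the 10 genes no call or p is given. The groups did not overlap, with Runx1-KO higher, in Asns, Slc7a11 and Chac1, where 9.17% of all genes did so. They did not overlap, with Runx1-KO lower, in Cebpg, where 11.7% of all genes did so. On the second probe sets of Asns and Slc7a11 and on the other probe sets of Cebpg the groups overlapped. The Slc7a11 values that separated, 7.38 on Runx1-KO 1 and 6.79 on Control 3, were both below background. Since these values chose the genes, nothing is read from the counts. All 10 genes had a value on every array, 8 were above background on all 6 arrays and 9 on at least 3, Slc7a11 being the exception.

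**Figure D3:**
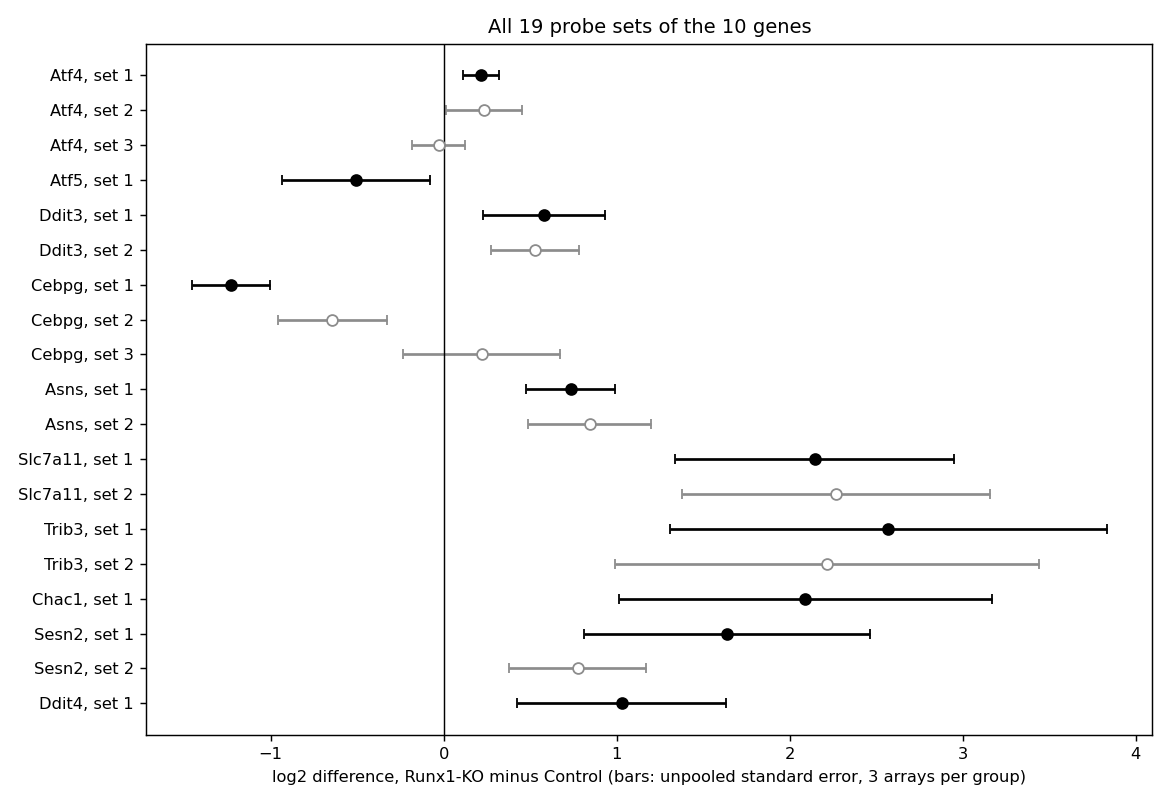
Log2 difference, Runx1-KO minus Control, for all 19 probe sets of the 10 genes, numbered within each gene from the brightest; filled points are the probe sets used, and bars are the standard error from the spread within each group of 3 arrays. The probe sets of Cebpg run from -1.23 to 0.22, whereas both probe sets of Trib3, Asns, Sesn2, Slc7a11 and Ddit3 lie above 0.

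The wider pathway was read from 12 gene lists holding 126 measured genes besides the 10. Of these, 1 was called higher and 0 lower, against 0.033% and 0.055% of all genes, and 19 had an unadjusted p under 0.05, as did 12.6% of all genes. A higher Runx1-KO mean was found in 76 of the 126 (60.3%), with a median log2 difference of 0.10.

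The gene called was Phgdh, the first enzyme of serine synthesis. It was 245, 199 and 223 on the Runx1-KO arrays and 59.8, 56.3 and 60.0 on the Control arrays, 3.77-fold higher (log2 difference 1.92 ± 0.18, limma adjusted p = 0.0423). Unlike Trib3, it was high on Runx1-KO 1 as well. Leaving out any 1 of the 6 arrays left 1 gene called higher and 1 or 2 called lower over all genes. Phgdh lost its call in each of these fits (limma adjusted p = 0.127 to 0.216), with a log2 difference of 1.84 to 1.99. The other 7 genes of its list, enzymes of serine, glycine, proline and one-carbon metabolism, did not pass, and the list's median was 0.34.

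Upstream of ATF4, 0 of 12 genes for the eIF2 kinases, eIF2B subunits, phosphatase subunits and a kinase regulator passed, 7 with a higher and 5 with a lower Runx1-KO mean (median 0.16). Eif2ak3, which encodes the kinase PERK, stood at 176, 202 and 156 against 123, 160 and 139. Eif2ak4, which encodes the amino acid sensor GCN2, stood at 101, 59.3 and 63.7 against 51.6, 64.1 and 49.2. Eif2ak2, a further kinase gene, stood at 422, 401 and 510 against 401, 362 and 332. The kinase gene Eif2ak1 went the other way, at 207, 257 and 222 against 441, 271 and 345. Its groups did not overlap (-0.60 ± 0.24, limma adjusted p = 0.383). The lowest p values were those of 2 subunit genes of the exchange factor eIF2B, Eif2b3 (-0.82 ± 0.26, limma adjusted p = 0.305) and Eif2b5 (-0.58 ± 0.19, adjusted p = 0.316). Both had lower values on all Runx1-KO arrays than on any Control array. Such separation, with Runx1-KO lower, was found in 11.7% of all genes.

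Of 18 other stress-induced ATF4 targets, 0 passed, with 13 higher and 5 lower means and a median of 0.14. Stc2 and Cars2 had the lowest p among those above background on at least 3 arrays. Stc2, which encodes the secreted glycoprotein stanniocalcin 2, was 20.6, 55.1 and 131 on the Runx1-KO arrays and below background on all Control arrays, at 4.08, 13.0 and 12.0. It was at least 3.03-fold higher (limma adjusted p = 0.287). Cars2, a mitochondrial aminoacyl-tRNA synthetase gene, had -0.75 ± 0.24 (adjusted p = 0.315).

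Aminoacyl-tRNA synthetase genes, whose products charge transfer RNAs and which are classical ATF4 targets, differed little in their group means. Of 12, 0 passed, 8 had higher and 4 lower means, and the median was 0.10. Sars had the lowest p (-0.43 ± 0.22, limma adjusted p = 0.464), followed by Wars (-0.25 ± 0.22, adjusted p = 0.677). In 5 of the 8 with a promoter window, Aars, Gars, Tars, Iars and Yars, the window held the letters searched above. So did 3.24% of measured genes. Among the other lists, 6 of 15 other stress-induced ATF4 targets, 1 of 6 transporters and 1 of 14 endoplasmic reticulum stress genes held them. Every remaining list had 0, that of Phgdh with 7 windows included.

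Of 10 other amino acid transporter genes, 9 had a higher Runx1-KO mean and 0 passed (median 0.24). Slc1a4, a carrier of neutral amino acids, stood at 102, 172 and 121 against 96.9, 82.2 and 79.0 (0.59 ± 0.25, limma adjusted p = 0.404). Slc7a5, the large neutral amino acid carrier LAT1, stood at 193, 210 and 222 against 133, 141 and 183 (0.46 ± 0.20, adjusted p = 0.412). In both genes the groups did not overlap, with Runx1-KO higher, where 9.17% of all genes did so. The gene with a lower mean, Slc43a1, was above background only on Control 1, at 233, the array with erythroid signal.

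Endoplasmic reticulum stress genes under ATF6 and XBP1 had a median of -0.07, with 8 higher and 9 lower means and 0 of 17 past the threshold. Hspa5, the chaperone BiP, stood at 2437, 3091 and 2156 against 2283, 2625 and 2168. Herpud1, a membrane protein of the degradation pathway, had the lowest p (0.68 ± 0.23, limma adjusted p = 0.338), followed by Sel1l of the same pathway (0.42 ± 0.25, adjusted p = 0.521).

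Some of the 10 genes answer to other regulators, whose targets are given for comparison. Of 10 NRF2 pathway genes, which share Slc7a11, 0 passed (median 0.07); the factor itself, Nfe2l2, stood at 347, 375 and 468 against 180, 243 and 156 (1.06 ± 0.24, limma adjusted p = 0.221), and Gclm, a subunit of the first enzyme of glutathione synthesis that stands on the glutathione list as well, had 1.30 ± 0.46 (adjusted p = 0.339). Of 8 hypoxia targets, which share Ddit4, 0 passed (median 0.32). Among them Vegfa was 696, 695 and 810 against 364, 352 and 321 (1.09 ± 0.18, adjusted p = 0.142), and Ankrd37 had 0.89 ± 0.47 (adjusted p = 0.481). Of 6 glucocorticoid targets, which also share Ddit4, 0 passed (median -0.34), with Per1 at -1.95 ± 0.52 (adjusted p = 0.257) and Klf9 at 1.60 ± 0.47 (adjusted p = 0.287), which differed in sign.

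Nutrient sensing by mTORC1, which Sesn2 and Ddit4 restrain, was covered by 17 genes, of which 0 passed (median -0.04). Nprl2, a subunit of the GATOR1 complex, had -0.99 ± 0.20 (limma adjusted p = 0.190), and Tsc1, a subunit of the TSC complex, 0.60 ± 0.19 (adjusted p = 0.310). Of 9 genes of cysteine and glutathione metabolism, 0 passed (median 0.07); Cbs, which makes cystathionine from homocysteine, was at least 1.40-fold higher (adjusted p = 0.355). Of 5 relatives in the TRIB and C/EBP families, 0 passed (median 0.08). Trib1 had 1.46 ± 0.98 (adjusted p = 0.576), with 439 on Runx1-KO 1, where Trib3 was lowest of the Runx1-KO arrays, and 60.6 on Runx1-KO 3, and Cebpa had 0.45 ± 0.37 (adjusted p = 0.654).

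**Figure D4:**
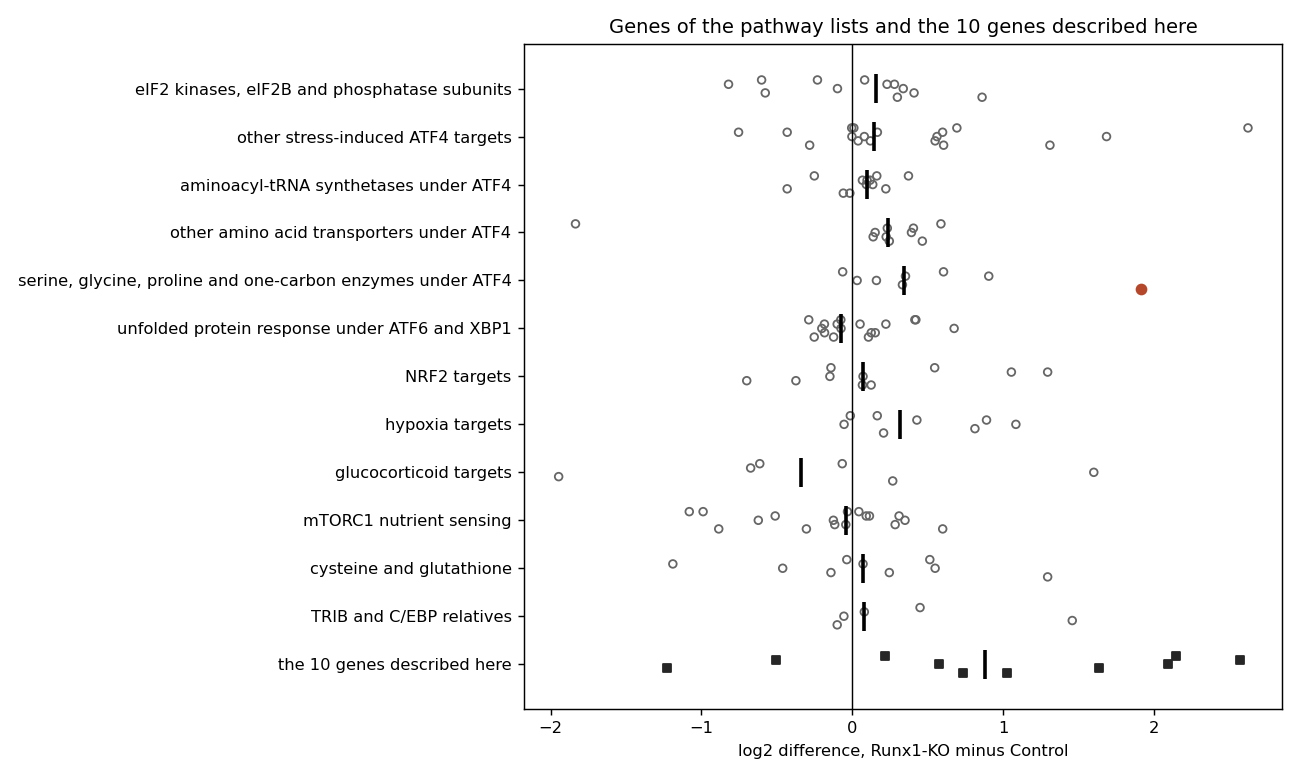
Log2 difference, Runx1-KO minus Control, for each measured gene of 12 pathway lists (circles) and for the 10 genes described here (squares, given with no test), with black bars at the medians; the filled red circle is Phgdh, the gene past the threshold. List medians run from -0.34 for glucocorticoid targets to 0.34 for serine, glycine, proline and one-carbon enzymes, against 0.88 for the 10 genes.

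Genes whose pattern over the 6 arrays was most like that of Asns were sought among 9695 others above background on all arrays, by the root mean square difference of log2 levels centred on each gene's mean. The nearest were Siah1a (0.106), Dtx4 (0.114), Tmco4 (0.114), Gng7 (0.118) and Chd2 (0.120), where the median over all genes was 0.546. Nearest to the median profile of the 10 genes were Gsdma2 (0.114), Eif4ebp1 (0.137), Bend3 (0.140), Ino80d (0.145) and Lrch4 (0.148). Eif4ebp1 encodes the translation repressor 4E-BP1 and stood on the list of ATF4 targets. It was 327, 776 and 673 on the Runx1-KO arrays and 312, 369 and 351 on the Control arrays, with Runx1-KO 1 inside the Control range.

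**Figure D5:**
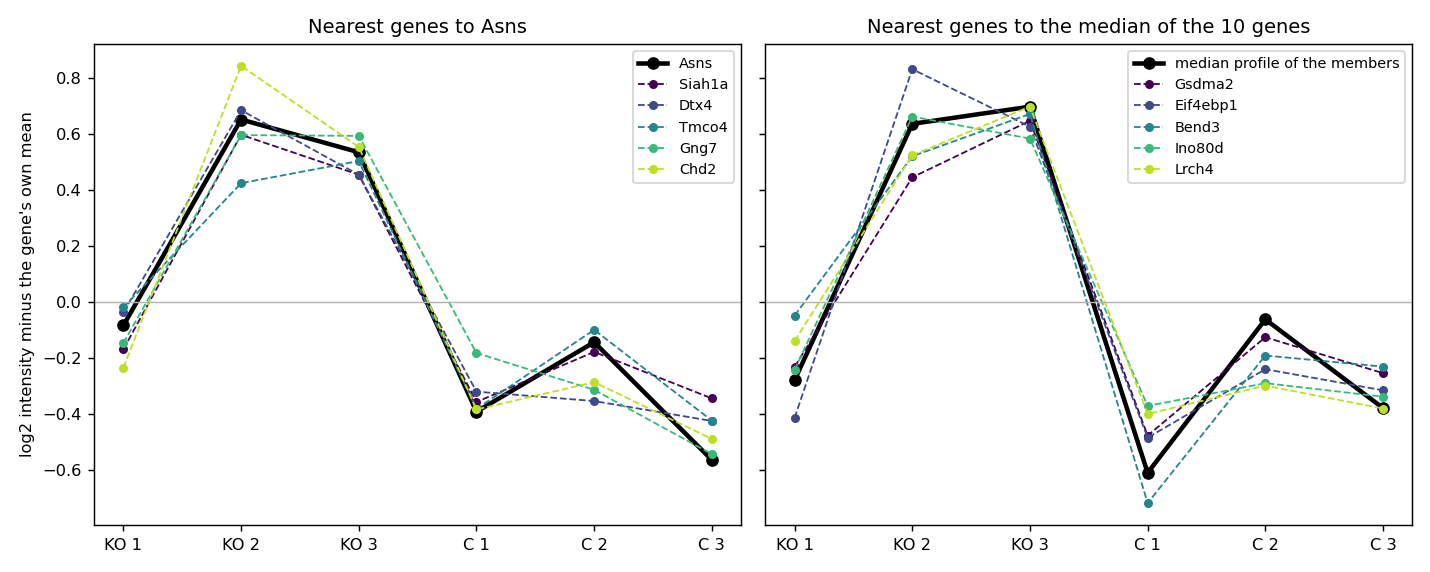
Log2 intensity minus each gene's own mean over the 6 arrays (KO 1 to 3, Runx1-KO; C 1 to 3, Control), for Asns and its 5 nearest genes on the left and for the median of the 10 genes and its 5 nearest genes on the right. All lines are high on KO 2 and KO 3, and the median of the 10 genes is lowest on C 1.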

How the data were processed

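Complementary DNA made from total RNA of 6 leukemias was labelled with biotin and hybridised to a 1-colour array, per the labels' protocols. The authors deposited linear intensity values whose array medians lay close together; probe summary, background step and normalization are not given in the sources used here. Of 45101 probe sets, 34958 had 1 symbol; 932 with several and 9211 with none were left out. The brightest probe set by mean log2 level stood for each of 18194 genes. Intensities were taken to log2 and fitted with limma 3.58.1 (lmFit, eBayes) in R 4.3.3, with no covariate or filter, two-sided, and Benjamini-Hochberg adjustment over all genes. The fit was tested on simulated data with 200 changed genes.

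A value at or below the background limit is called dim. Where the lower group had dim arrays, these were raised to their limits, which makes the stated fold a lower bound, written "at least".

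The 10 genes and all lists were chosen with earlier results of these data known. From each list up to 4 genes past the threshold were named, or else the 2 of lowest p above background on at least 3 arrays. Eif2ak1, Eif2ak2, Eif2ak3, Eif2ak4, Hspa5, Slc3a2, Slc43a1 and those that only the closing section names were picked with their values in view. So was the array pattern given for Aars. Alternatives were 2 normalizations, an offset of 16, a filter on dim genes, the mean of all probe sets, array weights, robust fitting with a variance trend, the replicate number as a block and leaving out each array; leaving out both arrays numbered 1 was added after seeing the data.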

Additional observations from a re-analysis of the deposited data

How the results depend on the processing

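The median log2 difference of the 10 genes stayed above 0 in all 15 alternatives (0.70 to 1.31). In each, 8 of 10 genes had a higher Runx1-KO mean, or 7 of the 9 kept by the filter on dim genes. The genes were chosen by this difference on these arrays, so refits of the same values give it no support. The replicate block and the variance trend with robust fitting cannot change a difference, and the filter leaves kept genes unchanged. These unchanged values are counted among the recomputed differences that follow. Leaving out 1 array from a group of 3 cannot, by arithmetic, move a difference by 1 SD within groups. Those values are counted there as well, so the count within 1 SD does not measure stability. Of 149 recomputed differences of single genes, 0 changed sign and 146 moved by less than 1 SD within groups; the others were Cebpg with the mean of all probe sets (-0.55), Slc7a11 with an offset of 16 (0.85) and Ddit4 without both arrays numbered 1 (1.88). Groups did not overlap in 4 to 7 of the 10 genes with 1 array left out (28.8% to 36.2% of all genes), 7 being without Runx1-KO 1, and in 8 without both arrays numbered 1 (47.3% of all genes), since fewer arrays overlap less often. Counts of calls over all genes depended on the setting: 25 higher and 39 lower with an offset of 16, 14 and 20 with the filter on dim genes, 39 and 65 with a variance trend and robust fitting, and 27 and 44 with array weights. With any 1 array left out they were 1 higher and 1 or 2 lower. Without both arrays numbered 1 they were 0 and 0 by limma, with 2318 genes at an unadjusted p under 0.05. With the replicate block they were also 0 and 0, with 1929 genes at an unadjusted p under 0.05 and 0 pathway genes called. Over all genes, deviations of same-numbered arrays hardly correlated (-0.01, -0.09 and 0.04), and 1 of 6 arrays correlated best with its own number. Whether a subset of genes was paired by replicate number was not tested. Pathway genes called were 2, Phgdh and Vegfa, with the offset, with the variance trend and robust fitting together, and with the array weights, and 0 with any 1 array or both arrays numbered 1 left out. The cause of these changes was not tested. Precision was limited by 3 arrays per group and, for Slc7a11, Chac1 and Stc2, by signal near background.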

Other observations

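Further genes of the pathway lists were high on Runx1-KO 2 and 3 and low on Runx1-KO 1, as Trib3 was. These genes were chosen after their values were seen. Nupr1, a small stress-induced chromatin protein, was 65.4, 538 and 303 on the Runx1-KO arrays and 106, 57.7 and 52.0 on the Control arrays. Aars, the alanyl-tRNA synthetase gene, was 288, 613 and 547 against 290, 405 and 379. Mthfd2, the mitochondrial folate enzyme, was 481, 940 and 1207 against 647, 674 and 626, and Slc7a1, a carrier of cationic amino acids, 859, 1608 and 1431 against 911, 925 and 1036. In these 4 genes Runx1-KO 2 and 3 exceeded every Control array and Runx1-KO 1 did not. The pattern was seen in 18 of the 126 pathway genes (14.3%), against 6.57% of all genes. Among the 18 were Eif2b1, Impact, Xbp1, Atf6, Adm and Gpx4, from lists other than those of ATF4 targets. The lists were chosen with results of these data known, and the difference was not tested.

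Other stress genes had another order and were high on both arrays numbered 1. Ppp1r15a, which encodes GADD34, the subunit that directs dephosphorylation of eIF2, was 212, 27.3 and 60.2 on the Runx1-KO arrays and 226, 54.5 and 45.5 on the Control arrays. Atf3 was 395, 87.3 and 96.4 against 261, 106 and 121, and Dusp1, an immediate early phosphatase gene, 2222, 439 and 370 against 2499, 707 and 732. Ppp1r15a and Atf3 are known ATF4 targets. These genes too were chosen after their values were seen.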
